A study of Sus scrofa with 4 samples.

Results

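The genes described are the 7 of the platelet-derived growth factor (PDGF) family in the pig tables: the receptors PDGFRA and PDGFRB, the receptor-like gene PDGFRL, and the ligands PDGFA, PDGFB, PDGFC and PDGFD. They were chosen by name, and all 7 were found among the 29263 genes counted. The cells came from lungs of pigs with an LGR5-H2B-GFP knock-in, a green nuclear reporter of LGR5, which encodes a receptor for R-spondins in Wnt signalling. Both groups carry the knock-in: 2 libraries of sorted GFP-HI cells and 2 of GFP-NEG cells, given as biological replicates 1 and 2 in each. Age is not given per library (the protocol covers adult and fetal animals, and only the name of the authors' comparison table mentions adult pigs), and no agent or surface gate is stated for these 4.

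PDGFs are secreted dimers that bind and pair receptor tyrosine kinases on mesenchymal cells, driving their growth and migration. In lung, epithelial PDGFA acts on PDGFRA-bearing fibroblasts and is known for its part in alveolar septum formation, whereas endothelial PDGFB acts on PDGFRB-bearing pericytes. PDGFC and PDGFD are secreted as latent forms that proteases must cleave. PDGFRL encodes a protein resembling the outer part of the receptors without a kinase.

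PDGFRA, PDGFRB and PDGFRL were higher in GFP-HI cells, by 11.5-fold, 5.91-fold and 3.81-fold in mean level. Of the 4 ligands only PDGFA was called, lower by 4.48-fold, and PDGFB, PDGFC and PDGFD did not pass the threshold. Values are CPM, counts scaled to library size after TMM scaling (a factor that aligns the bulk of genes between libraries), and the threshold was an adjusted p of 0.05 in edgeR's quasi-likelihood test over all 19682 genes tested. All 7 genes passed the filter on low counts.

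So 3 of the 7 genes were called higher, against 8.35% of all genes tested, and 1 was called lower, against 27.6%. Calls in either direction made up 36.0% of all genes. The groups did not overlap for 5 of the 7, but 69.7% of all genes share that property (27.7% higher and 42.0% lower in GFP-HI), so non-overlap alone says little here. The median log2 fold change was 2.56 over the receptors and PDGFRL, -1.28 over the 4 ligands and -0.25 over all genes tested.

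GFP-HI libraries held 24200550 and 24689986 counts and GFP-NEG libraries 6292253 and 7045652, so that 1 count is worth 0.0453 to 0.0496 CPM in GFP-HI against 0.110 to 0.155 CPM in GFP-NEG. As a check of the sort, LGR5 stood at 146 and 152 CPM in GFP-HI against 1.55 and 0.767 CPM in GFP-NEG. In bulk libraries, fewer cells that express a gene and less RNA per cell cannot be told apart.

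PDGFRA, the receptor for PDGFA and PDGFC, was measured at 822 and 563 CPM in GFP-HI replicates 1 and 2, and at 97.2 and 22.7 CPM in GFP-NEG replicates 1 and 2. The lower GFP-HI library was 5.79 times the higher GFP-NEG library. The log2 fold change reached 3.53 (standard error, SE, of 0.76; adjusted p of 6.8e-05, edgeR), the 98th largest of the 19682. It was higher in both replicates, by 3.08 and 4.63 on the log2 scale.

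PDGFRB, the main receptor for PDGFB and PDGFD and a classical pericyte gene, stood at 704 and 387 CPM in GFP-HI against 154 and 30.8 CPM in GFP-NEG. Both GFP-HI libraries were above both GFP-NEG libraries, by at least 2.52 times. The log2 fold change was 2.56 with an SE of 0.71 and an adjusted p of 0.0015 (edgeR). Within replicates 1 and 2 it was higher by 2.20 and 3.65.

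PDGFRL was at 424 and 650 CPM in GFP-HI against 237 and 44.8 CPM in GFP-NEG. GFP-NEG replicate 1 came closest to the GFP-HI range, 1.79 times below its lower library. Unlike both receptors, PDGFRL was higher in GFP-HI replicate 2 than in replicate 1. Its log2 fold change was 1.93 with an SE of 0.70 and an adjusted p of 0.020 (edgeR). The difference was 0.84 within replicate 1 and 3.86 within replicate 2.

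The GFP-NEG replicates differed for these 3 genes, and replicate 1 held 4.28, 4.99 and 5.29 times the CPM of replicate 2 for PDGFRA, PDGFRB and PDGFRL. Without GFP-NEG replicate 2, log2 fold changes of PDGFRA, PDGFRB and PDGFRL were 2.83, 1.83 and 1.18 and none was called (edgeR adjusted p of 0.068, 0.24 and 0.48). Without GFP-NEG replicate 1 they were 4.93, 4.15 and 3.58 and all 3 were called. PDGFRL also lost its call without GFP-HI replicate 2 (adjusted p of 0.16). Over the 13 alternatives the adjusted p ranged from 2.5e-06 to 0.068 for PDGFRA, from 8.8e-04 to 0.24 for PDGFRB and from 0.0047 to 0.48 for PDGFRL. A fit with 1 library in a group assumes that this library varies like the others.

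**Figure D1:**
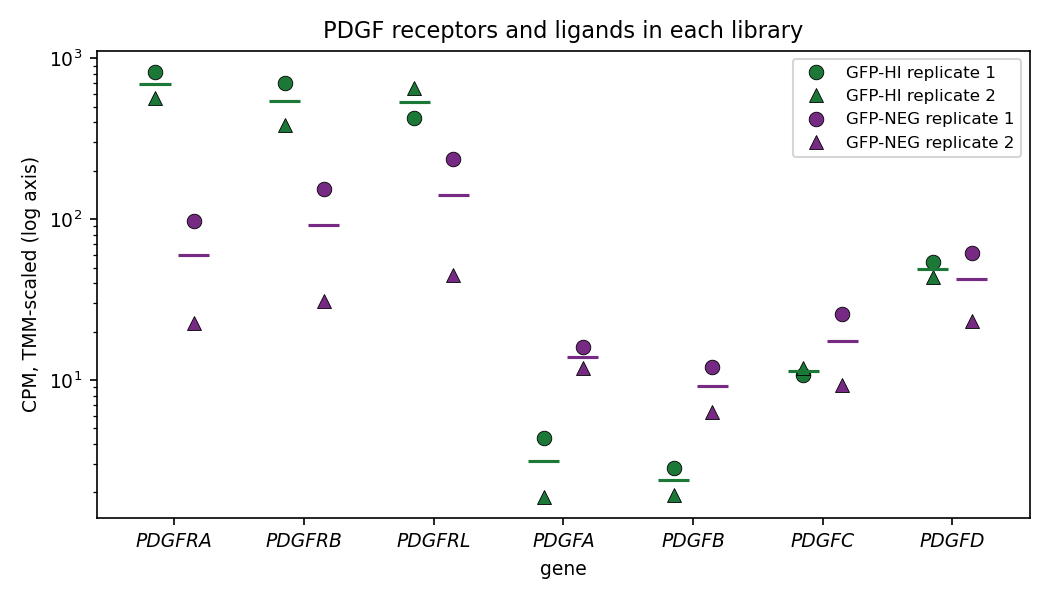
CPM after TMM scaling (log axis) of the 7 PDGF family genes, with 1 point per library, circles for replicate 1, triangles for replicate 2 and bars for the mean of 2 libraries. PDGFRA, PDGFRB and PDGFRL lie higher in both GFP-HI libraries, PDGFA and PDGFB lie lower in both, and PDGFC and PDGFD overlap.

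For PDGFA, the epithelial ligand of PDGFRA, the reads numbered 96 and 38 in GFP-HI against 103 and 109 in the shallower GFP-NEG libraries. These correspond to 4.35 and 1.88 CPM against 16.0 and 11.9 CPM. Both GFP-HI libraries were low, and the lower GFP-NEG library was 2.75 times the higher GFP-HI library. The log2 fold change was -2.16 with an SE of 0.74 and an adjusted p of 0.013 (edgeR). The call was lost without GFP-HI replicate 2 (-1.65, adjusted p of 0.16) and without GFP-NEG replicate 1 (-1.93, adjusted p of 0.083), with a range of 0.0042 to 0.16 over the 13 alternatives.

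For PDGFB, the endothelial and platelet ligand, the counts were 63 and 39 in GFP-HI against 78 and 58 in GFP-NEG. That is 2.85 and 1.93 CPM against 12.1 and 6.36 CPM, so the groups did not overlap. A log2 fold change of -1.94 had an SE of 0.85 and did not pass the threshold (adjusted p of 0.062, edgeR). With the replicate number as a block, which may pair the libraries of 1 pig, it did pass (log2 difference of -1.90, adjusted p of 0.034), and 2 of the 7 genes were then called lower. Over the alternatives in which it was tested the adjusted p ranged from 0.034 to 0.35.

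PDGFC, a latent ligand of PDGFRA, was at 10.7 and 11.9 CPM in GFP-HI against 25.8 and 9.32 CPM in GFP-NEG. The GFP-HI libraries lay between both GFP-NEG libraries. The fitted difference of -0.63 on the log2 scale had an SE of 0.60 (adjusted p of 0.44, edgeR). The sign differed between replicates, at -1.27 in replicate 1 and 0.35 in replicate 2.

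PDGFD, the latent ligand of PDGFRB, was at 54.3 and 43.7 CPM in GFP-HI against 61.8 and 23.4 CPM in GFP-NEG, with overlapping groups. The fitted difference of 0.20 on the log2 scale had an SE of 0.51 (adjusted p of 0.80, edgeR). It was -0.06 and -0.14 under upper-quartile scaling and library size alone, -0.34 without GFP-NEG replicate 2 and 1.07 without GFP-NEG replicate 1. As with the receptors, GFP-NEG replicate 1 held more PDGFC and PDGFD than replicate 2, by 2.77 and 2.65 times, while PDGFA and PDGFB differed by 1.34 and 1.90 times.

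**Figure D2:**
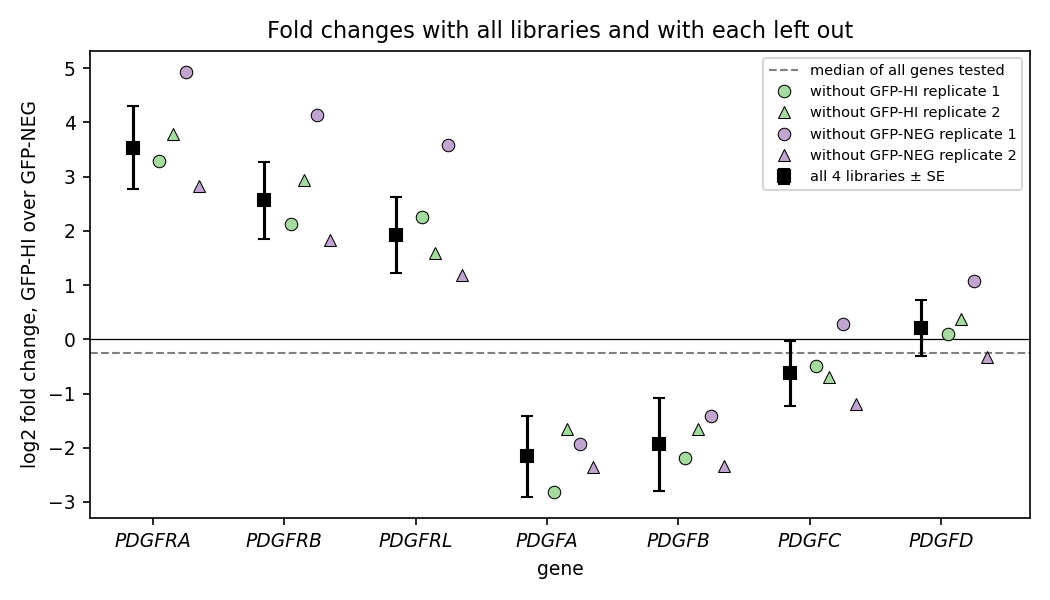
Log2 fold change of each gene, GFP-HI over GFP-NEG, from edgeR with all 4 libraries (black squares with SE) and with each library left out (circles for replicate 1, triangles for replicate 2; green, a GFP-HI library; purple, a GFP-NEG library). The dashed line is the median of all genes, -0.25. For PDGFRA the value runs from 2.83 without GFP-NEG replicate 2 to 4.93 without GFP-NEG replicate 1.

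The authors' deposited table holds the same counts of these 4 libraries, so it is no separate support. It gives the same 4 genes an adjusted p under 0.05. In the authors' deposited table the log2 fold change is 3.53 for PDGFRA, 2.56 for PDGFRB, 1.93 for PDGFRL and -2.17 for PDGFA. PDGFB has an adjusted p of 0.053 in the authors' deposited table.

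Ratios of 2 genes within a library depend on neither depth nor scaling. The counts are not corrected for transcript length. A ratio above or below 1 therefore does not rank the levels of its 2 genes, and only its difference between groups is read. The ratio of PDGFRA to PDGFRB counts was 1.17 and 1.45 in GFP-HI against 0.632 and 0.737 in GFP-NEG. Thus the ratio was higher in both GFP-HI libraries than in both GFP-NEG libraries. The mean difference was 0.93 on the log2 scale, with SDs of 0.23 in GFP-HI against 0.16 in GFP-NEG (n = 2 each, exact two-sided permutation p of 0.333, the smallest that 2 against 2 libraries can give).

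Among the ligands, PDGFC counts were 2.46 and 6.32 times PDGFA counts in GFP-HI, against 1.61 and 0.780 times in GFP-NEG. PDGFD counts were 19.0 and 22.6 times PDGFB counts in GFP-HI, against 5.10 and 3.67 times in GFP-NEG. For both pairs the GFP-HI libraries lay above the GFP-NEG libraries (exact permutation p of 0.333 in each, not adjusted over the 3 ratios because no smaller value is possible). The mean log2 differences were 1.81 and 2.26. Leaving out replicate 2 of GFP-HI or of GFP-NEG put the first at 1.13 or 1.29, and leaving out replicate 1 of either put it at 2.49 or 2.34.

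Some lists of cell type markers differed between the groups and others did not. Their counts stand against 8.35% of all genes called higher and 27.6% called lower. The 14 fibroblast genes had a median log2 fold change of 2.25, with 10 called higher (2 if GFP-NEG replicate 2 was left out and 6 if GFP-HI replicate 2 was), and their summed level was 96164 and 91337 CPM in GFP-HI against 31249 and 10316 CPM in GFP-NEG. GFP-NEG replicate 1, the library with more PDGFRA, PDGFRB and PDGFRL, was thus also the GFP-NEG library with more fibroblast RNA, and the median of the list was 4.30 without it. Fibroblast RNA was not alone in this. Replicate 1 also exceeded replicate 2 of GFP-NEG in pericyte and smooth muscle (2684 against 406 CPM), endothelial (1398 against 604 CPM) and epithelial sums (887 against 271 CPM). Leukocyte and platelet sums were closer, at 4008 against 4087 CPM and 109 against 96.5 CPM. Measured per 1000 CPM of these fibroblast genes, a ratio chosen after the values were seen, PDGFRA was at 8.55 and 6.16 in GFP-HI against 3.11 and 2.20 in GFP-NEG. Per CPM of this sum PDGFRA was higher in both GFP-HI libraries, by 1.47 on the log2 scale (exact permutation p of 0.333). The difference was 0.91 with the mean log2 level of the list as the divisor. COL1A1, COL1A2, COL3A1 and FN1, which were not called, made up most of the sum in each library. DCN, LUM, FBLN1 and DPT had larger log2 fold changes (3.57, 3.96, 4.40 and 4.09) than PDGFRA (3.53). The rest of the list had smaller ones, so the difference depends on the genes in the divisor.

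PDGFRB per 1000 fibroblast CPM overlapped between groups, at 7.32 and 4.23 in GFP-HI against 4.92 and 2.99 in GFP-NEG. PDGFRL overlapped as well, at 4.41 and 7.12 against 7.59 and 4.35. Its mean difference per fibroblast CPM was -0.04 on the log2 scale, or -0.60 with the mean log2 level of the list, where GFP-HI lay below GFP-NEG.

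**Figure D3:**
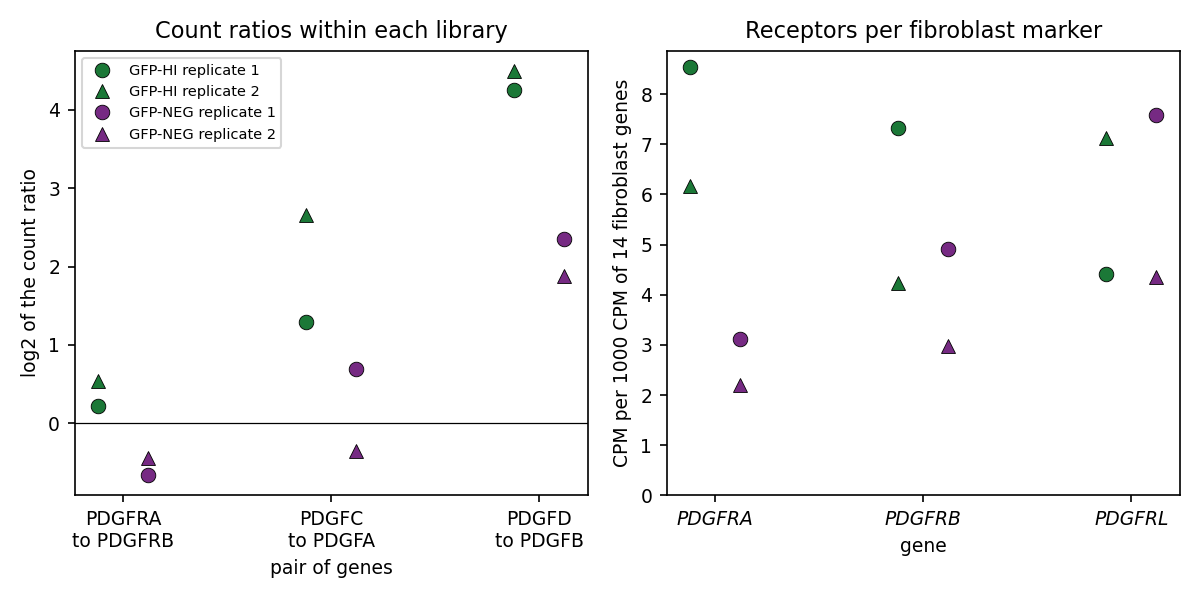
Left, log2 ratio of the counts of 2 genes within each library; right, CPM of PDGFRA, PDGFRB and PDGFRL per 1000 CPM of 14 fibroblast genes. Circles are replicate 1 and triangles replicate 2, green for GFP-HI and purple for GFP-NEG. The groups are apart for all 3 count ratios and for PDGFRA per fibroblast CPM, and overlap for PDGFRB and PDGFRL per fibroblast CPM.

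The listed pericyte and smooth muscle genes were mostly lower where called. Of 13 such genes, 1 was called higher and 6 lower (3 lower with the replicate block or DESeq2, 1 with limma-voom). PDGFRB and CSPG4, which are also pericyte genes, are outside this list and were called higher (log2 fold changes of 2.56 and 1.96). RGS5, a pericyte gene, was lower, at 2.85 and 14.6 CPM in GFP-HI against 47.7 and 27.3 CPM in GFP-NEG, a call lost without GFP-HI replicate 1 or GFP-NEG replicate 1 (edgeR adjusted p of 0.13 and 0.067). COX4I2, also a pericyte gene, was the 1 called higher, at 34.7 and 128 CPM against 32.8 and 5.81 CPM (adjusted p of 5.5e-04, edgeR), and lost its call without GFP-HI replicate 2 or GFP-NEG replicate 2 (adjusted p of 0.43 and 0.30). NOTCH3, a receptor of mural cells, was at 95.2 and 55.5 CPM against 48.9 and 17.0 CPM and was not called (adjusted p of 0.059). Their summed level overlapped, at 1332 and 2427 CPM in GFP-HI against 2684 and 406 CPM in GFP-NEG, and none was at 0 in both libraries of a group. Without GFP-NEG replicate 1, 4 of them were called higher and 0 lower, and the number lower was 3 without GFP-HI replicate 1 and 1 without GFP-HI replicate 2. PDGFRB per 1000 CPM of the 13 listed genes was 529 and 159 in GFP-HI against 57.3 and 75.8 in GFP-NEG. The groups were apart on this measure, by 2.14 on the log2 scale. ACTA2 and TAGLN, which were not called, made up most of the sum in each library, so the measure mainly sets PDGFRB against these genes. With the mean log2 level of the list as the divisor the difference was 3.31.

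Endothelial genes were lower in GFP-HI in 9 of 10 tested (4 of 10 without GFP-NEG replicate 1), with sums of 222 and 209 CPM in the GFP-HI libraries and 1398 and 604 CPM in the GFP-NEG libraries. PDGFB per 1000 endothelial CPM was 12.9 and 9.27 in GFP-HI against 8.66 and 10.5 in GFP-NEG, so the groups overlapped on this measure. Platelet genes had 0 of 5 tested called in either direction by edgeR, DESeq2 or limma-voom (0 also at an unadjusted edgeR p under 0.05), with sums of 139 and 216 CPM in GFP-HI against 109 and 96.5 CPM in GFP-NEG. Of the 7 platelet genes in the tables, TREML1 was at 0 in both GFP-HI libraries and in GFP-NEG replicate 1. It had 2 counts in GFP-NEG replicate 2 and was not tested.

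Leukocyte genes were lower in 7 of 11 tested and 0 were higher, with sums of 470 and 695 CPM in GFP-HI against 4008 and 4087 CPM in GFP-NEG. Epithelial genes were lower in 3 of 12 and higher in 0 (1 each without GFP-NEG replicate 1), and their sums overlapped, at 384 and 430 CPM against 887 and 271 CPM. PDGFA per 1000 epithelial CPM remained lower in GFP-HI, at 11.3 and 4.38 against 18.0 and 44.0. Per 1000 leukocyte CPM, PDGFA overlapped, at 9.25 and 2.71 against 3.99 and 2.92, and so did PDGFA per endothelial CPM, at 19.6 and 9.03 against 11.4 and 19.8. The part of these cell types in the PDGFA difference was not tested.

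**Figure D4:**
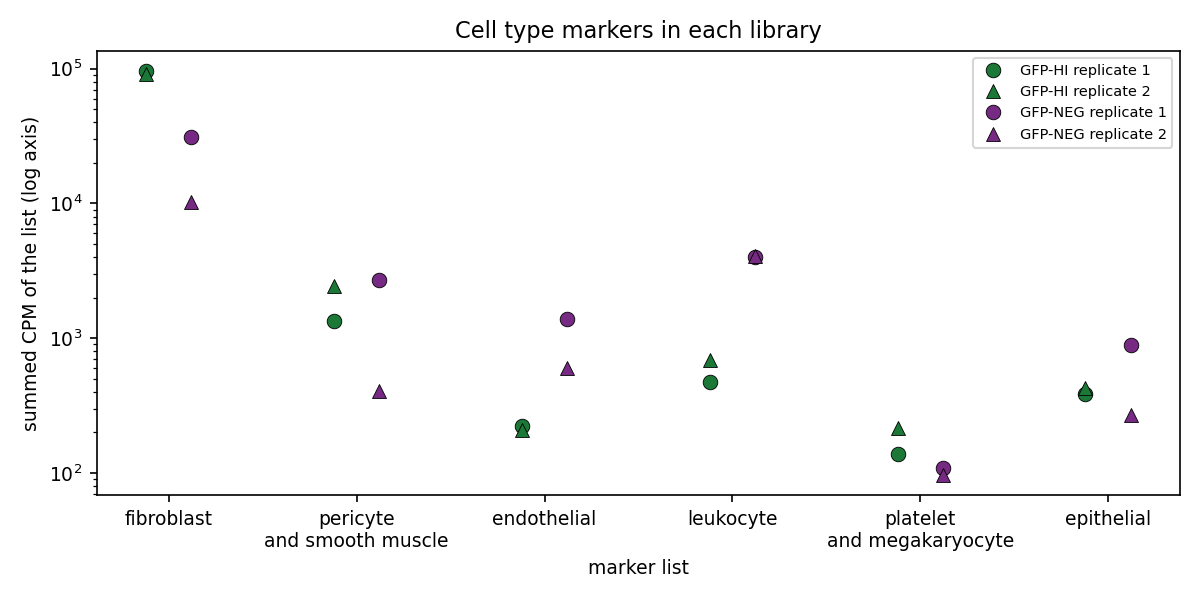
Summed CPM (log axis) of 6 marker lists in each library, circles for replicate 1 and triangles for replicate 2, green for GFP-HI and purple for GFP-NEG. Fibroblast and platelet sums are higher in both GFP-HI libraries, endothelial and leukocyte sums are lower in both, and pericyte and epithelial sums overlap. Of the platelet genes, 0 of 5 tested were called.

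Beyond the family, 6 lists of genes that act with PDGF held 62 genes tested, of which 10 were called higher and 14 lower in GFP-HI. That is 38.7% called, against 36.0% of all genes (8.35% higher and 27.6% lower), and their median log2 fold change was 0.21. The counts of each list below stand against these same shares, and a count near them is no result about its list. Among these 24 genes, 6 were called in every fit that left out a library. Without GFP-NEG replicate 2 only 1 of the 10 higher genes (PCSK6) and 9 of the 14 lower genes remained called, and PCSK6 was also the 1 higher gene left with a filter of 10 CPM in at least 2 libraries.

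Of 20 adaptors and effectors downstream of activated receptors, 1 was called higher and 2 lower, with a median of 0.31 (-0.02 and -0.11 under upper-quartile scaling and library size alone). PIK3R1, the regulatory subunit of PI3-kinase that docks on both receptors, was at 787 and 574 CPM in GFP-HI against 442 and 238 CPM in GFP-NEG. This log2 fold change of 1.00 did not pass the threshold (adjusted p of 0.31, edgeR). PIK3R3, another regulatory subunit, was higher by 1.52 (adjusted p of 0.021), and the catalytic subunit PIK3CB and the adaptor GRB2 were lower, at -1.83 and -1.44 (adjusted p of 0.0082 and 0.020). None of these 3 calls held without GFP-NEG replicate 2 (adjusted p of 0.24, 0.18 and 0.12) or GFP-HI replicate 2 (0.085, 0.093 and 0.18), and those of PIK3R3 and GRB2 were lost without GFP-NEG replicate 1 (0.11 and 0.19). PIK3R3 was called in 6 of the 13 alternatives, and not under upper-quartile scaling, library size alone or limma-voom (adjusted p of 0.087, 0.14 and 0.0502). With the replicate block, or without GFP-HI replicate 1, 2 of the 20 were higher.

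Of 15 off switches and feedback genes, 2 were called higher and 4 lower, against 8.35% and 27.6% of all genes tested. The number lower was near that share, and the median of the list was -0.86. SPRED1 and SPRY2, which restrain the RAS pathway downstream of receptor kinases, were higher by 2.08 and 1.98 (adjusted p of 5.8e-04 and 0.0018, edgeR). SPRED1 was at 79.4 and 94.8 CPM in GFP-HI against 31.8 and 9.43 CPM in GFP-NEG. DUSP6, a phosphatase acting on ERK, and PTPRJ, a receptor-type tyrosine phosphatase, were lower, at -1.81 and -1.75 (adjusted p of 0.0043 and 0.0052). The related SPRY1, SPRY4 and SPRED2 were not called (adjusted p of 0.16, 0.26 and 0.39). CBL, a ubiquitin ligase that marks activated receptors for breakdown, had a log2 fold change of -0.93 and was not called (adjusted p of 0.16). Without GFP-NEG replicate 2, SPRED1 and SPRY2 lost their calls (adjusted p of 0.25 and 0.17), leaving 0 higher and 2 lower. Without GFP-HI replicate 2 the list had 2 higher and 0 lower in number, SPRY2 (adjusted p of 0.11), DUSP6 (0.094) and PTPRJ (0.088) being lost, and without GFP-NEG replicate 1 it had 3 and 2, with DUSP6 (0.22) and PTPRJ (0.084) lost.

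Proteases that process PDGFs differed in direction, in a list with 2 of 10 higher and 3 lower, against 8.35% and 27.6% of all genes. PLAT, tissue plasminogen activator, which cleaves latent PDGFC, was at 68.8 and 113 CPM in GFP-HI against 34.9 and 7.34 CPM in GFP-NEG (2.11 on the log2 scale, adjusted p of 5.0e-04, edgeR). PLAU, urokinase, which cleaves PDGFD, was at 68.8 and 123 CPM in GFP-HI against 549 and 366 CPM in GFP-NEG (-2.25 on the log2 scale, adjusted p of 0.0041). The groups were apart for each of these genes, in opposite directions.

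ST14, or matriptase, an epithelial protease that also cleaves PDGFD, was lower at -1.96 (adjusted p of 0.010, edgeR). PCSK6, a proprotein convertase, was at 39.0 and 52.7 CPM in GFP-HI against 5.74 and 3.62 CPM, higher by 3.30 (adjusted p of 1.4e-06), and was called in all 13 alternatives. FURIN, the convertase known to mature PDGFA and PDGFB, was at -0.50 on the log2 scale (adjusted p of 0.52). Of the 10 genes in this list 2 were higher and 3 lower (with GFP-NEG replicate 1 left out 4 and 1, with GFP-HI replicate 2 left out 1 and 1, with GFP-NEG replicate 2 left out 1 and 2). PLAT lost its call without GFP-NEG replicate 2 (adjusted p of 0.28) or GFP-HI replicate 2 (0.061), PLAU without GFP-HI replicate 1 (0.083), and ST14 in 3 of the 4 fits that left out a library.

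Co-receptors and binding partners were called higher in 3 of 7 and lower in 0. CSPG4, the NG2 proteoglycan that binds PDGFA and is a pericyte marker, was at 495 and 202 CPM in GFP-HI against 134 and 45.6 CPM in GFP-NEG (log2 difference of 1.96, adjusted p of 0.0095, edgeR). NRP1, a co-receptor shared with VEGF, was higher by 1.53 (adjusted p of 0.038), and HSPG2, the basement membrane proteoglycan perlecan, by 2.40 (adjusted p of 0.0032). The median of the list was 1.53, and it was 0.75 without GFP-NEG replicate 2, where 0 of 7 were called, and 2.93 without GFP-NEG replicate 1. When GFP-HI replicate 1 was left out only HSPG2 was called, and without GFP-HI replicate 2 NRP1 was not (adjusted p of 0.081). NRP1 was called in 4 of the 13 alternatives, and not with DESeq2 or limma-voom (adjusted p of 0.089 and 0.12). The list had 0 of 7 called with the filter of 10 CPM, 1 with limma-voom and 2 under upper-quartile scaling or library size alone. LRP1 was not analysed here.

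The receptor kinases closest to the PDGF receptors in structure moved the other way. KIT, CSF1R and FLT3, of the same class, and the VEGF receptors FLT1, KDR and FLT4 had a median log2 fold change of -2.57, with 5 of 6 called lower and 0 higher. In the RefSeq gene order of the Sscrofa11.1 assembly, KIT and KDR are the next 2 protein-coding genes on one side of PDGFRA, and CSF1R is the next on one side of PDGFRB. KIT, the stem cell factor receptor of mast cells and progenitors, was at 12.9 and 11.5 CPM in GFP-HI against 52.2 and 51.5 CPM in GFP-NEG, at -2.09 on the log2 scale (adjusted p of 6.0e-04, edgeR).

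KDR, the main endothelial VEGF receptor, was at 11.3 and 14.5 CPM in GFP-HI against 105.4 and 54.9 CPM, lower by a log2 value of -2.63 (adjusted p of 3.0e-05, edgeR). CSF1R, the receptor of macrophage colony-stimulating factor, was at 50.2 and 17.0 CPM against 238 and 330 CPM, at -3.08 (adjusted p of 3.5e-05). FLT3, a receptor of dendritic cells and progenitors, had a log2 fold change of -5.10. KIT, CSF1R, FLT3, KDR and FLT4 were called lower in all 13 alternatives. Leukocyte and endothelial marker sums moved with them, and their part was not tested.

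Ligands of the same structural family gave 2 of 4 called higher and 0 lower. PGF, placental growth factor, was at 68.8 and 44.5 CPM in GFP-HI against 23.3 and 9.21 CPM in GFP-NEG (log2 difference of 1.81, adjusted p of 0.0031, edgeR). VEGFA, at 1.42, also passed (adjusted p of 0.033), but its lower GFP-HI library, at 17.3 CPM, was under its higher GFP-NEG library, at 17.7 CPM. VEGFA was called in 5 of the 13 alternatives, and not with DESeq2 or limma-voom (adjusted p of 0.11 and 0.18). Without GFP-NEG replicate 2, or without GFP-HI replicate 1, 0 of the 4 were called.

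**Figure D5:**
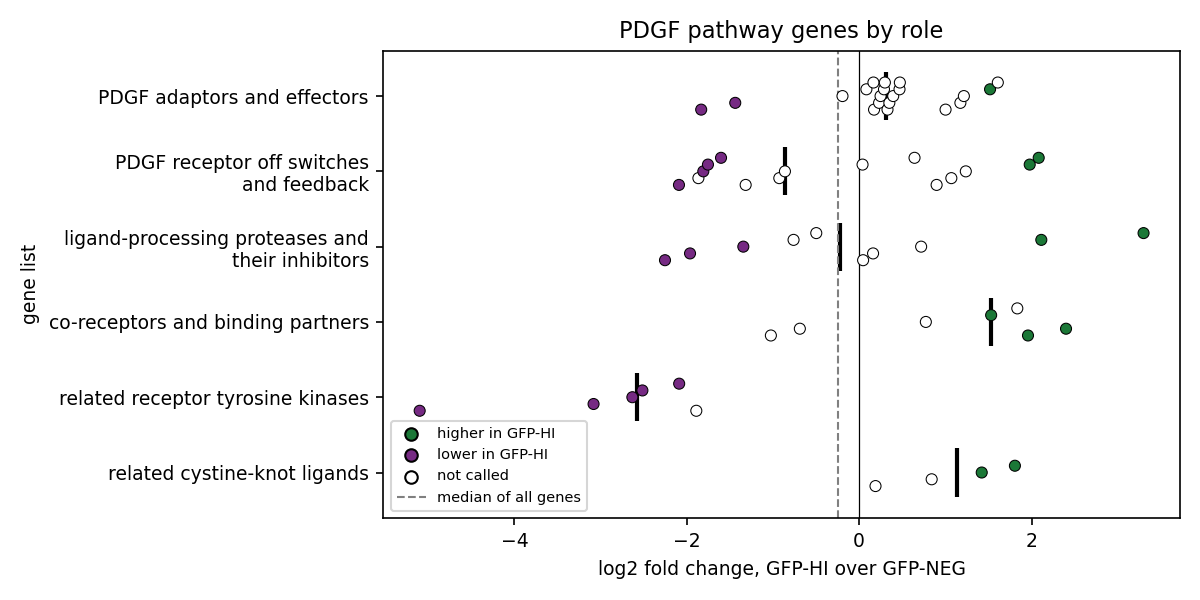
Log2 fold change, GFP-HI over GFP-NEG, of the 62 tested genes in 6 lists around PDGF signalling, with 1 point per gene (green, called higher; purple, called lower; white, not called). Black bars are list medians and the dashed line is the median of all genes, -0.25; related receptor kinases lie to the left, with a median of -2.57.

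Genes with the pattern most like each called member over the 4 libraries were found by the distance between centred log2(CPM + 1) profiles, among 9245 other genes with a symbol and a mean of at least 10 CPM. For PDGFRA these were LTBP2, FBN1 and LTBP1, which encode latent TGF-beta binding proteins and fibrillin, with distances of 0.14, 0.18 and 0.25. LTBP2 averaged 1106 ± 252 CPM in GFP-HI cells and 106 ± 93.5 CPM in GFP-NEG cells (SD, n = 2). The distance is a description of 4 points that share the 2 groups.

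For PDGFRB the nearest were the metalloproteinase ADAMTS8, the protease inhibitor RECK and the prostacyclin synthase PTGIS, all at distances of 0.22 to 0.23. PDGFRL lay nearest to DYNC2LI1, a subunit of the ciliary transport dynein, to OMD, the matrix proteoglycan osteomodulin, and to PLAT (0.16, 0.19 and 0.21). PDGFA lay nearest to KCTD13, ST14 and IER3 (0.091, 0.15 and 0.18). Any link of PLAT or ST14 to these members was not tested.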

How the data were processed

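RNA sequencing counts of 4 libraries were analysed, 2 GFP-HI and 2 GFP-NEG. The authors deposited 1 table of whole-number gene counts per library. The submitters' processing notes name featureCounts, Subread 1.5.2 and DESeq2 1.37.6. The aligner and strand setting are not given in the sources used here, so overlapping genes are uncertain. The genome build is not stated either, but the name of the authors' comparison table gives its annotation the number 11.1, that of the Sscrofa11.1 assembly. The authors' deposited table of the comparison (16250 genes) also holds log2 fold changes, p-values and adjusted p-values per the file headers. Its 4 columns of normalized values per sample were not used, because 2 of their headings (1 GFP-negative and 1 GFP-positive) appear exchanged. Of 844 identifiers with a symbol in the gene name table, 834 were renamed.

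Counts were fitted with edgeR 4.0.16 (R 4.3.3; glmQLFit, glmQLFTest) with TMM scaling, filterByExpr and group as the only term, and p-values were adjusted by Benjamini-Hochberg over 19682 genes. SE values are the absolute log2 fold change over the root of F. The prior degrees of freedom were infinite, so a gene's own scatter between replicates had no weight in its p-value or SE. PDGFRL, with GFP-NEG replicates 5.29 times apart, had an SE of 0.70, and PDGFA, with 1.34 times, had 0.74. Alternatives were 3 scalings, 2 filters, DESeq2 1.42.0, limma-voom 3.58.1, the replicate block, thinned depth and each library left out. The same headings name pig 1 and pig 2, each with both groups, so equal replicate numbers may come from 1 pig, but with headings in doubt this pairing is uncertain. Deviations of equal numbers correlated across genes (r of 0.19). In counts simulated at the depths of these libraries (20344 genes), edgeR recovered 3.45% of 87 genes changed by a log2 of 2. It recovered 27.1% of 107 changed by 3, and 0% of its 32 calls were false. Few genes were changed there, against 36.0% of genes called in the data. The adjusted threshold was therefore stricter in the simulation, and these shares do not carry over to the data. A gene not called may still differ. The labels call the libraries biological replicates.

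The 7 genes and all lists were chosen with earlier results of these data known. From each list the text names at most 2 called genes per direction, by lowest adjusted p, plus genes acting directly on a PDGF member. The named fibroblast genes, RGS5, COX4I2, NOTCH3, SPRY1, SPRY4, SPRED2, TREML1 and the per-marker ratios were chosen after their values were seen. Of 6 mesothelial genes listed, 2 were named in the tables and 0 could be tested.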

Additional observations from a re-analysis of the deposited data

How the results depend on the processing

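LGR5, PDGFRA, PDGFRB, PDGFRL, PDGFA and PDGFB kept their direction in every alternative in which they were tested. Without a library, log2 fold changes ranged from 2.83 to 4.93 for PDGFRA, 1.83 to 4.15 for PDGFRB, 1.18 to 3.58 for PDGFRL, -2.82 to -1.65 for PDGFA, -1.19 to 0.28 for PDGFC and -0.34 to 1.07 for PDGFD. The number of the 7 genes called ranged from 0 to 3 higher and from 0 to 1 lower in these fits, against 3 and 1. All genes called ranged from 204 to 1539 higher and from 1373 to 4680 lower, against 1643 and 5433.

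With a filter of 10 CPM in at least 2 libraries, 419 genes were higher and 1078 lower of 10260 tested, and 1 of the 7 was higher: PDGFRB was at 2.30 (adjusted p of 0.068), PDGFRL at 1.66 (0.18) and PDGFD at -0.080, while PDGFB was not tested. Under limma-voom 902 genes were higher and PDGFRL was not called (2.34, adjusted p of 0.073). Higher genes numbered 1083 under upper-quartile scaling and 888 under library size alone, where the median of all genes moved from -0.25 to -0.58 and -0.68 and PDGFD to -0.056 and -0.14. PDGFB was called under library size alone (-2.30), DESeq2 (-1.98) and the replicate block (-1.90), which gives 2 genes lower in each. The block changed no other call among the 7 genes. GFP-HI counts thinned to GFP-NEG depth gave 3562 lower genes and the same calls for the 7. The cause of these shifts was not tested. Without a library, the mean log2 differences of the count ratios ranged from 0.77 to 1.09 for PDGFRA to PDGFRB, 1.13 to 2.49 for PDGFC to PDGFA and 2.02 to 2.38 for PDGFD to PDGFB. Depth limits PDGFA and PDGFB most, at 38 to 109 counts a library.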
